A study of Mus musculus with 6 samples.

Results

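The 10 genes followed here belong to the germ line and are known as genes that differentiated and early embryonic cells keep silent through promoter DNA methylation. They were compared in mouse epiblast stem cells with and without Dicer, the ribonuclease that makes mature microRNAs. The list consisted of Ddx4, Dazl, Mael, Piwil2, Sycp1, Sycp3, Tdrd1, Asz1, Stk31 and Tex101, and its genes were taken from the arrays by exact gene symbol. Of these 10, 9 had a probe set that named them alone, 1 probe set each, among 20193 genes measured in the series. Sycp3 lay on a probe set shared with Chpt1 and has no value of its own here. The arrays held no methylation measurement, so silencing was read only as array signal.

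The 3 control samples were untreated Dicer fx/fx epiblast stem cells (EpiSCs), a primed pluripotent cell type derived from the post-implantation epiblast. The 3 deleted samples, labelled Dicer -/-, came from the same floxed cells after 3 days in 0.3 µM 4-OH-tamoxifen and 2 days without it, with RNA taken on day 5. The medium of all cells held Activin at 20 ng/ml and bFGF at 12 ng/ml, on plates coated with serum. Experiments 18, 19 and 20 were independent deletions, each with 1 control and 1 deleted array, plated and divided together. Only deleted cells met tamoxifen, so drug and deletion cannot be told apart, and the recombinase is not described in the sources used here. Array medians lay between 247.7 and 260.1 intensity units. The number of arrays limits the precision of every value. Dicer1 intensity was 1836, 2079 and 2098 in controls 18, 19 and 20 and 601.6, 553.1 and 645.4 in the matching deleted samples, so every deleted array was below every control. The difference was -1.74 ± 0.09 log2 units (limma, adjusted p = 0.0452; 0.0666 with the experiment as a block).

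Germline genes of this kind carry CpG-rich promoters that are methylated by DNMT3A and DNMT3B around implantation and stay methylated in somatic cells. Their products act later, in germ cells, in the piRNA pathway that silences transposons, in meiotic chromosome pairing and in translational control. Repression before and alongside methylation involves a Polycomb complex, PRC1.6, which is brought to DNA by E2F6 and by the MGA and MAX pair. In mouse embryonic stem cells, loss of Dicer has been reported to lower the DNA methyltransferases through the repressor RBL2.

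The promoters are shown first because their sequence is independent of the array signal. Since the genes were chosen for promoter methylation, their CpG content is tied to that choice and is given as a description. Windows of 300 bases, from 250 before to 50 after the annotated start, were taken from RefSeq (GRCm38.p6) for 9 of the 10 genes, with Sycp3 among them and Piwil2 not. Where a gene had several windows, the first listed was used. Each was searched on both strands for TCCCGC, the core of the E2F6 site, and for CACGTG, the E-box bound by MGA and MAX; the letters of these motifs do not overlap each other in the windows printed. The 4 windows with both motifs read as follows, 5′ to 3′ on the gene's strand, with the motifs in capitals (GCGGGA is the E2F6 core on the other strand).
Ddx4 (chr13:112652261-112652560, minus strand): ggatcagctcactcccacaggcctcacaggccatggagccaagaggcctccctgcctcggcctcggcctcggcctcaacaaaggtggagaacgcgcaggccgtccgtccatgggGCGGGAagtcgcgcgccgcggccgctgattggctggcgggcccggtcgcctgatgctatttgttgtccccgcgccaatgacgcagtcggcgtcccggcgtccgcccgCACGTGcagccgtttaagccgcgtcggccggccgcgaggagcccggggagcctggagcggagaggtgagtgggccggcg
Mael (chr1:166238695-166238994, minus strand): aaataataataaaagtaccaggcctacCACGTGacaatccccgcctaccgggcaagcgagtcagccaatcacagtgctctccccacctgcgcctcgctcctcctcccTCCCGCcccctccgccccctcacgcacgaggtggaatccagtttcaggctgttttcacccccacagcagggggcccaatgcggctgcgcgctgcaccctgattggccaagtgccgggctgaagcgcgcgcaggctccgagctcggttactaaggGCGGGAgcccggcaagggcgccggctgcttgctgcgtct
Sycp1 (chr3:102936051-102936350, minus strand): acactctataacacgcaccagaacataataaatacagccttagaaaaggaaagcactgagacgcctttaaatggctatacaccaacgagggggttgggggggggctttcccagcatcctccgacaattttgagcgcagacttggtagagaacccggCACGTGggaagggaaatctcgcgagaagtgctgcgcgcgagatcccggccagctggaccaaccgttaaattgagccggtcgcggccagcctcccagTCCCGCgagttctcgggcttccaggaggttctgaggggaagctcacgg
Sycp3 (chr10:88459337-88459636, plus strand): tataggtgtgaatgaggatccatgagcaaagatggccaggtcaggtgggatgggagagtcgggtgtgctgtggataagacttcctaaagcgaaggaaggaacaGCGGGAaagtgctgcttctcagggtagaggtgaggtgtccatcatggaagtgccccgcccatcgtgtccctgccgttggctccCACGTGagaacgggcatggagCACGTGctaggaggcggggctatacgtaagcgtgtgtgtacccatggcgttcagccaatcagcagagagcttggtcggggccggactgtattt

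In these windows the E-box began 29 bases before the start of Ddx4, 223 before Mael, 94 before Sycp1, and 64 and 43 before Sycp3. The E2F6 core began 136 bases before the start of Ddx4, 143 before that of Mael and 147 before that of Sycp3, and a core also began at transcript base 12 of Mael and base 3 of Sycp1. Tdrd1 and Stk31 held an E-box alone, 11 and 55 bases before their starts. The same E-boxes lay 77 and 120 bases before the starts of their second windows. The stretches of 36 bases centred on those E-boxes are shown for the genes that had no E2F6 core.
Tdrd1 (chr19:56826183-56826218, plus strand): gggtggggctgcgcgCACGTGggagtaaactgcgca
Stk31 (chr6:49395469-49395504, plus strand): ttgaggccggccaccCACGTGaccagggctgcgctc

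An E-box was present in 6 of the 9 windows, against 7.24% of all 27018 genes with a window. The E2F6 core was present in 4 of 9 against 20%, and both motifs together in 4 of 9 against 2.05%. Both motifs contain a CpG, so the comparison was repeated over the 9846 windows whose CpG count exceeded 0.6 of the count expected from their C and G content. There an E-box was present in 11.4%, an E2F6 core in 43% and both in 4.78%. The E-box share of the germline genes was thus above both backgrounds, while their E2F6 share was close to that of other CpG-rich promoters. Dazl, Asz1 and Tex101 had neither motif in these windows. The motif matches are a description of sequence and no binding was measured.

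The windows also shared a high CpG content. They held 15 CpGs in Sycp3, 17 in Asz1, 19 in Tex101, 20 in Tdrd1, 21 in Sycp1, 24 in Mael, 28 in Dazl, 29 in Stk31 and 38 in Ddx4, against a median of 7 over all genes. The ratio of observed to expected CpG ran from 0.67 in Sycp3 to 0.98 in Ddx4. It exceeded 0.6 in 9 of 9 germline windows. Of the windows not used, the second of Tdrd1 and of Stk31 stood at 0.81 and 0.75. The third of Tdrd1, at another annotated start, held 3 CpGs at a ratio of 0.22 and neither motif. Among the 4268 array genes with a window whose signal lay between that of the dimmest and the brightest of the 9 measured germline genes, 12.1% exceeded 0.6, and among olfactory receptor genes 0.348% did. Genes as dim as these on the arrays thus had, for the most part, CpG-poor promoters, and the germline genes did not.

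**Figure D1:**
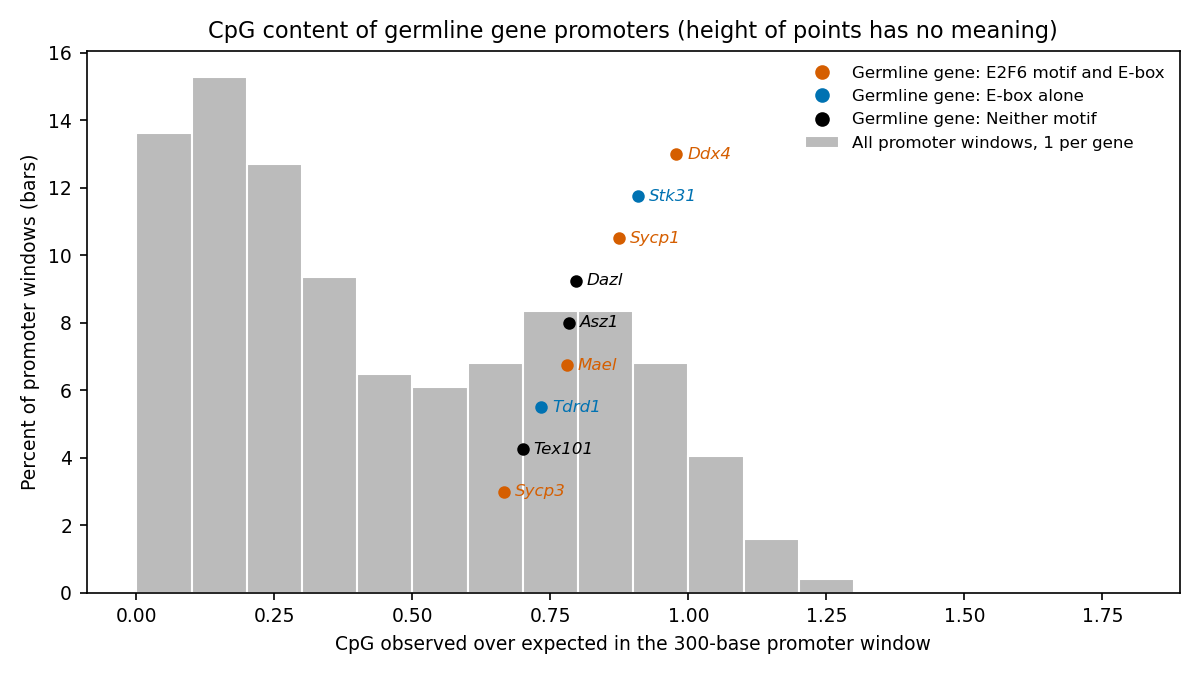
CpG observed over expected in 300-base promoter windows. Bars give the percent of all 27018 windows (1 per gene) per step of 0.1, and points give 9 germline genes, coloured by motif and spread in height for legibility only. All 9 points lie above 0.6, from 0.67 for Sycp3 to 0.98 for Ddx4.

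The label of silent genes was checked against array signal. No detection calls were used, so the signal of 1037 olfactory receptor genes, which pluripotent cells are not known to use, served as the background. Its median intensity was 51, with a 5th percentile of 34.1 and a 95th of 137. The mean signal of all 9 germline genes lay below that 95th percentile, and 4 of them (Sycp1, Stk31, Dazl and Asz1) lay below its median. Their mean log2 levels ran from 5.11 for Sycp1, at percentile 0.80 of all genes, to 7.06 for Piwil2, at percentile 31.1. Among the olfactory receptor genes, Piwil2 stood at percentile 94.2, Tex101 at 88.3 and Ddx4 at 82.9. Piwil2 was above the 95th percentile of 137 in control 18 (150.5), control 19 (145.2) and deleted 18 (141). Brightness depends on the probes as well as on the transcript, so this order does not rank transcript amounts. Most markers of the labelled cell type were bright. Pou5f1 stood between 6268 and 7636 in all 6 arrays and Otx2 between 5709 and 7598. Of the 12 primed markers Lefty2 was the dimmest, at 75 in control 18 and 88.8 in deleted 18 and at 178 to 503 in the other 4 arrays. The summed intensity of 12 primed markers was 38303 to 51164 in the controls, and after deletion it was 39751 to 52347. The 8 naive markers summed to 1615 to 2800 in the 6 arrays, with Klf4 at 340 to 838 and Klf2 at 390 to 703. Of these 8, only Zfp42 (61 to 76.3) and Nr0b1 (69.4 to 74.3) had a mean below the olfactory 95th percentile.

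**Figure D2:**
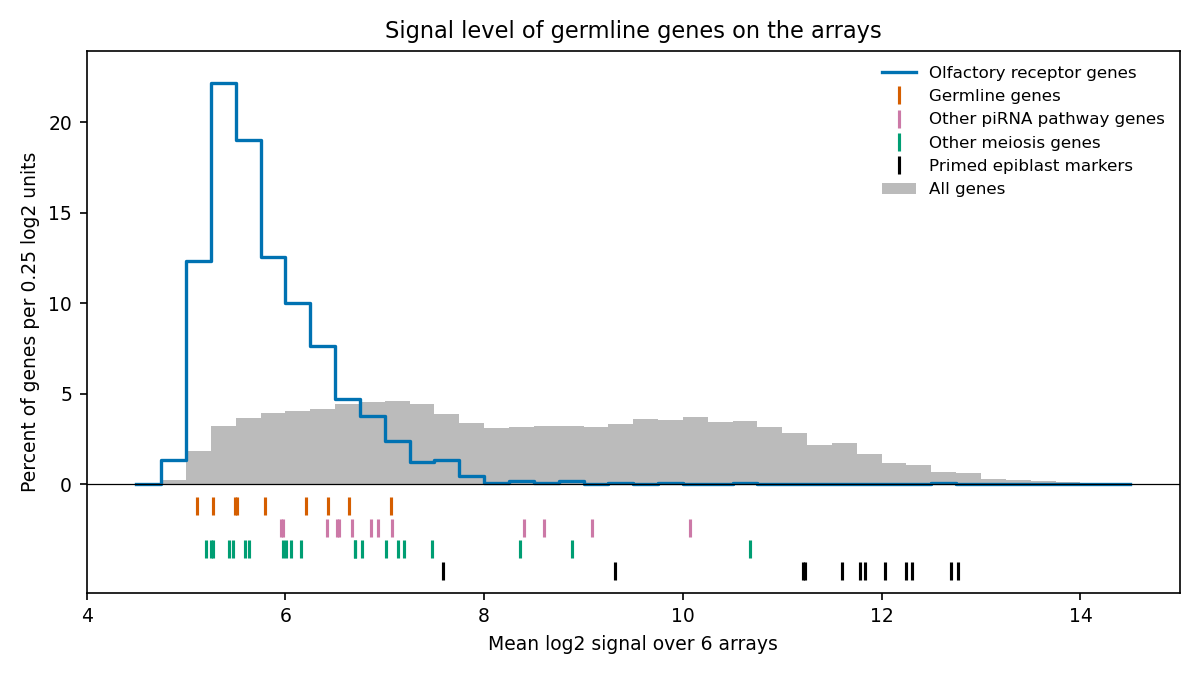
Mean log2 signal over 6 arrays. Grey bars give all 20193 genes and the blue line 1037 olfactory receptor genes, as percent per 0.25 log2 units; ticks give single genes of 4 groups. The 9 germline genes lie from 5.11 to 7.06, within the span of the olfactory receptor genes. The 12 primed markers lie further right, from 7.58 for Lefty2 to 12.76 for Pou5f1.

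After deletion of Dicer none of the 9 germline genes passed the test over all genes in either direction (limma, Benjamini-Hochberg adjusted p from 0.833 to 1), against 0.00495% of all genes, which was Dicer1 alone. None of the 9 had an unadjusted p under 0.05 either, against 6% of all genes and 3.63% of genes of the same span of signal. In a fit that keeps each experiment as a block, 0 of the 9 did, against 17.1% and 6.21%. The mean difference of deleted minus control was below 0 in 8 of 9, where 62.2% of all genes and 76.3% of 6115 genes of the same span of signal were below 0, and when quantile normalization was applied again it was below 0 in 4 of 9. The median difference was -0.03 on the log2 scale, against -0.04 over all genes and -0.05 over that span. For Ddx4 the upper end of the 95% interval of the difference allowed a rise of 1.29-fold, and for the other 8 genes of at most 1.12-fold (n = 3 arrays per group). Folds near the array background understate changes in transcript. In bulk RNA, fewer cells using a gene and less of its RNA per cell cannot be told apart.

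Among the genes of the piRNA pathway and germ granules, Ddx4 (Entrez 13206), the germ cell RNA helicase also called VASA, varied most of the 9 measured genes, with a 1.78-fold range. Its intensity was 84.7, 127 and 71.5 in controls 18, 19 and 20 and 85.2, 85.6 and 72 in deleted 18, 19 and 20. Control 19 stood alone above the other 5 arrays, and within experiments 18 and 20 control and deleted arrays were nearly equal, with deleted over control at 1.006 and 1.007. In experiment 19 deleted over control was 0.672. The difference over the 3 experiments was -0.18 ± 0.22 (log2, SE of the fit). Without control 19 it was 0.05, and without experiment 19 it was 0.0093. Among the 6115 genes of the same span of signal, control 19 was the highest array in 28.8%, and in 1 its lead over the next array was as large as that of Ddx4 (0.57 log2 units). The genes at or above the median level with the most similar pattern over the 6 arrays were Gas1 (Pearson r = 0.99), Yjefn3 (0.98) and Cdkn3 (0.98). These were picked as the closest over 6 arrays and carry no test.

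Piwil2 (Entrez 57746), a PIWI protein that binds piRNAs in male germ cells, had intensities of 150, 145 and 123 in controls 18, 19 and 20 and 141, 120 and 123 in the matching deleted samples. It was lower with deletion in all 3 experiments, by 0.09, 0.27 and 0.01 log2 units, but the groups overlapped. The difference was -0.12 ± 0.11 (adjusted p = 0.93, limma). Being lower in all 3 experiments was common, with 28.3% of all genes and 33.1% of genes of that span of signal; 2 of the 9 germline genes were so, Piwil2 and Tex101. None was higher in all 3, against 15.2% of all genes and 5.07% of genes of that span, so 0 of 9 is near the background.

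Mael (Entrez 98558), a transposon silencing factor of the germ granule, varied little. Its intensity was 57.4, 55.8 and 55.6 in controls and 54.6, 56.3 and 54.6 in deleted samples 18, 19 and 20, a difference of -0.03 ± 0.05. Tdrd1 (Entrez 83561), a Tudor protein that docks PIWI proteins, had 73.6, 70.1 and 77.9 in controls and 72.3, 73.2 and 76.1 in deleted samples. It was the 1 gene whose mean was not lower, at 0.0009 ± 0.065, and the groups overlapped. Asz1 (Entrez 74068), a mitochondrial scaffold of piRNA processing also called GASZ, had 45.5, 47.6 and 45.1 in controls and 46.2, 44.3 and 45.3 in deleted samples, a difference of -0.03 ± 0.06. Stk31 (Entrez 77485), a Tudor domain kinase-like protein of germ cells, had 36.9, 41.6 and 37.7 in controls and 38.7, 38.2 and 38.4 in deleted samples. Here too control 19 was the highest array, and the difference was -0.0092 ± 0.068.

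The meiotic gene Sycp1 (Entrez 20957), which encodes the transverse filament of the synaptonemal complex, was the dimmest. Its intensity was 35.5, 34.4 and 34.6 in controls and 33.8, 35.1 and 34.1 in deleted samples 18, 19 and 20, with overlapping groups and a difference of -0.02 ± 0.05. Dazl (Entrez 13164), an RNA-binding regulator of translation in germ cells, had 45, 44.1 and 47.3 in controls and 44.7, 45.1 and 44.2 in deleted samples. Its groups overlapped and the difference was -0.03 ± 0.06. All 6 arrays lay within a 1.07-fold range for Dazl and within 1.05-fold for Sycp1 and Mael.

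Tex101 (Entrez 56746), a surface glycoprotein of male germ cells, was the 1 germline gene whose groups did not overlap. Its intensity was 106, 107 and 101 in controls 18, 19 and 20 and 97.5, 90.5 and 97.5 in deleted samples, so every deleted array was below every control. The difference was -0.14 ± 0.06 and did not pass (adjusted p = 0.833, limma; 0.358 with the experiment as a block). Such separation was seen in 9.93% of all genes and in 14.3% of genes of the same span of signal, so 1 in 9 is near the background. No germline gene had every deleted array above every control, against 3.26% and 1.24%.

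**Figure D3:**
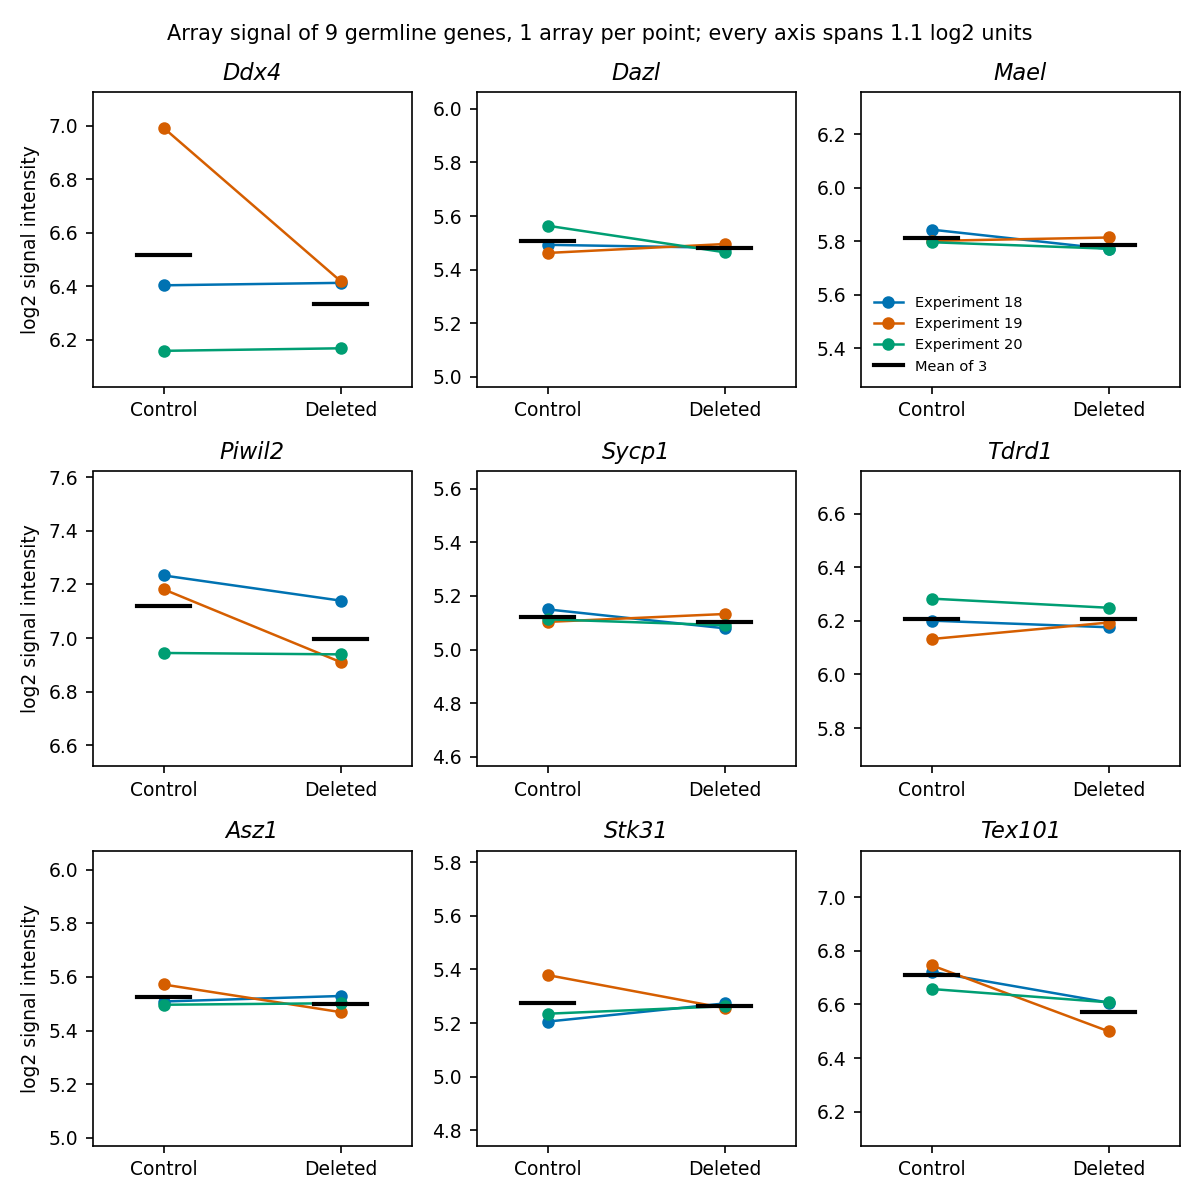
Log2 signal of the 9 measured germline genes, 1 panel per gene. Points are single arrays, coloured lines join control and deleted arrays of an experiment, and black bars are means of 3 arrays; every vertical axis spans 1.1 log2 units. Ddx4 in control 19 (127 intensity units) stands apart from the other 5 arrays (71.5 to 85.6), and Tex101 is the panel without overlap.

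Since most dim genes had a lower mean, each gene was set beside the 500 genes nearest to it in mean level. The median difference of those neighbours ran from -0.01 around Sycp1 to -0.07 around Piwil2. Relative to its neighbours' median, 4 of 9 germline genes were lower and 5 higher, and the median of the 9 was 0.0024 log2 units. That median had no stable sign: it was -0.0097 without experiment 18 (5 lower), 0.013 without experiment 19 (4 lower) and -0.0101 without experiment 20 (6 lower). The lowest was Ddx4, at -0.13 and percentile 5.2 of its neighbours, and the next was Tex101, at -0.07 and percentile 19.4. The highest was Tdrd1, at 0.06 and percentile 79.8. Dazl, Asz1, Mael and Stk31 lay between percentiles 51.6 and 60.2, Sycp1 at 39.8 and Piwil2 at 29.2. Differences of this size were thus also found in other genes of equal brightness, with Ddx4 nearest the edge.

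**Figure D4:**
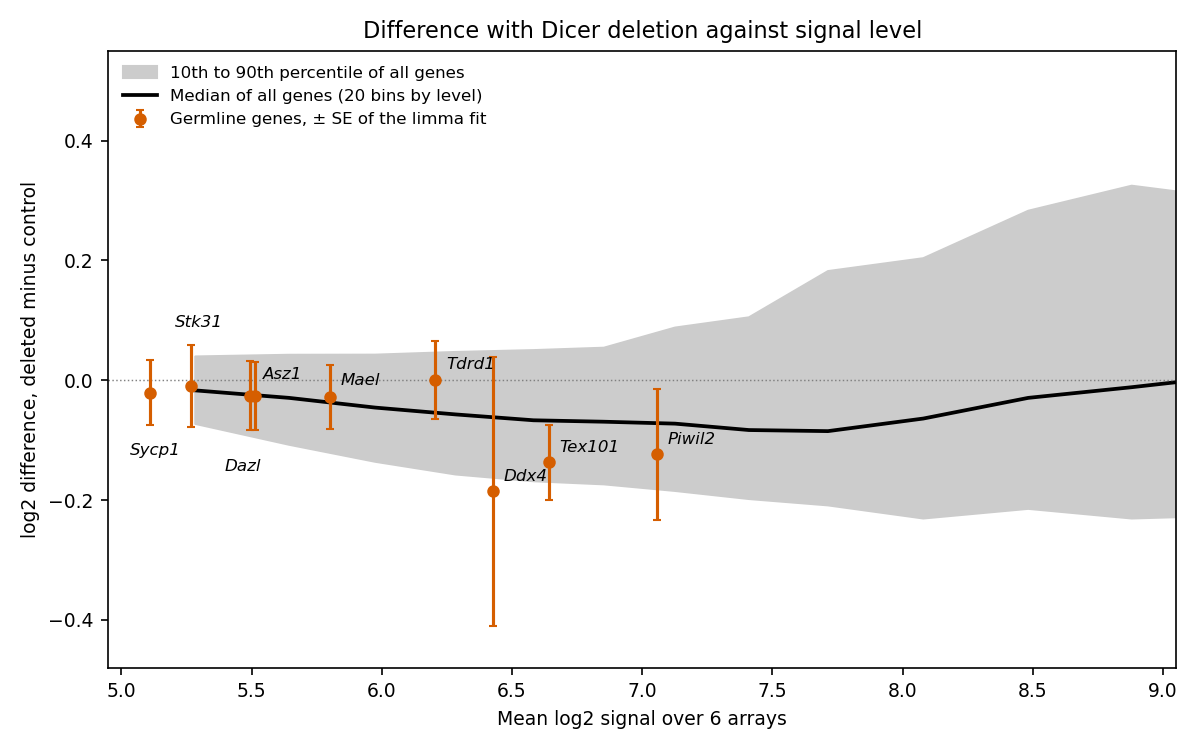
Log2 difference of deleted minus control against mean log2 signal over 6 arrays. The black line and grey band give the median and the 10th to 90th percentile of all genes in 20 bins by level, and orange points give germline genes with the SE of the limma fit. The points of Dazl, Asz1, Mael and Stk31 lie on or near the black line, Sycp1 lies left of the dimmest bin centre, and Ddx4 lies below the band with the widest SE, 0.22.

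The 3 experiments were also read one by one. In experiment 18 the median over the 9 genes was -0.02, with 6 lower and 3 higher, and 9 of 9 lay between the 10th and 90th percentile of their neighbours. In experiment 20 the median was -0.02, again with 6 lower and 3 higher and 9 of 9 between those percentiles. In experiment 19 the median was -0.10, with 5 lower and 4 higher, and 7 of 9 lay between them. The exceptions there were Ddx4, at percentile 0 of its 500 neighbours, and Piwil2, at 9.4. In all genes the median of experiment 19 was -0.05 against -0.02 and -0.03 in experiments 18 and 20. One array per group in an experiment allows no test of whether experiment 19 differed.

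Experiments also differed in baseline, and experiment 20 was compared with 18 and 19 in a fit with deletion as a further term. Both arrays of an experiment share a culture, so these p-values cover only the spread between them. None of the 9 germline genes was called, against 24.6% of all genes and 4.45% of genes of the same span of signal. Ddx4 was lower in experiment 20 by -0.39 ± 0.14 (adjusted p = 0.114, limma) and Piwil2 by -0.17 ± 0.08 (adjusted p = 0.185). Ddx4 was the 1 gene of the 9 with an unadjusted p under 0.05. The Ddx4 value passed without deleted 19 (adjusted p = 0.0247) or without deleted 20 (adjusted p = 0.0395). Primitive streak and endoderm markers were highest in experiment 20, with a summed intensity of 20477 and 20482 in its control and deleted arrays and 2162 to 3752 in the other 4. They were also above background in experiments 18 and 19, where Eomes stood between 622 and 863 and Gsc between 392 and 643. The mesoderm gene T stood at 348, 271 and 7004 in controls 18, 19 and 20 and at 1012, 1200 and 11800 in deleted samples. It was higher with deletion by 2.91-fold, 4.43-fold and 1.68-fold in the 3 experiments and did not pass (adjusted p = 0.945, limma; 0.152 in the blocked fit). Mesp1, 1 of the 7 markers, stayed below the olfactory 95th percentile. The part of these markers in any germline value was not tested.

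Other genes of the same pathways gave a wider range of signal. Of 13 further piRNA pathway genes 4 were brighter than the olfactory 95th percentile (Pld6, Tdrd5, Tdrd7 and Tdrkh). Of 21 further meiosis genes 6 were brighter than it, among them the cohesin gene Stag3, the synaptonemal gene Syce2 and Msh5. None of either list passed with deletion (limma), and 0 of the 13 and 1 of the 21 had an unadjusted p under 0.05, against 6% of all genes. In the blocked fit 3 of the 13 did, against 17.1% of all genes, with Tdrkh and Tdrd7 higher and Tdrd12 lower, and so did 2 of the 21. Of all genes, 62.2% had a lower mean, 28.3% were lower in all 3 experiments and 15.2% were higher in all 3. Within the span of signal of the 9 germline genes these shares were 76.3%, 33.1% and 5.07%. In the piRNA list 11 of 13 had a lower mean (median -0.10) and 5 were lower and 2 higher in all 3 experiments. The smallest unadjusted p belonged to Piwil4 (-0.10 ± 0.06) and Fkbp6 (-0.10 ± 0.06). In the meiosis list 15 of 21 had a lower mean (median -0.05) and 9 were lower in all 3 experiments. The smallest unadjusted p there belonged to Tex14 (-0.16 ± 0.06), a gene of germ cell bridges, and Mei1 (-0.17 ± 0.07). Tex14 stood at 94.3 to 111 over the 6 arrays, below the olfactory 95th percentile. Of 18 further genes of germ cells or with reported promoter methylation, Zfp42 included, 14 had a lower mean (median -0.04), with Magea4 at -0.13 ± 0.07 and Dnmt3l, the methyltransferase cofactor of germ cells, at -0.20 ± 0.11. None of the 18 passed, and 0 had an unadjusted p under 0.05. Of the 18, 3 were brighter than the olfactory 95th percentile. Magea4 (79.4 to 96.9) and Dnmt3l (77.9 to 110) were below it in all 6 arrays. Every deleted array was below every control in 1 of the 13, 5 of the 21 and 1 of the 18. The share was 9.93% of all genes and 14.3% of genes of the span of signal of the 9 germline genes.

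Tdrd12, a piRNA pathway helicase named here after its values were seen, shared the high control 19 of Ddx4. Its intensity was 94.8, 180 and 83.3 in controls 18, 19 and 20 and 84.3, 126 and 74.2 in deleted samples, so both arrays of experiment 19 were the highest. Control 19 was the highest array in 2 of the 13 piRNA genes, 8 of the 21 meiosis genes and 4 of the 18 further genes. It was so in 4 of the 9 germline genes, against 28.8% of genes of their span of signal. Tdrd12 was lower in experiment 20 than in 18 and 19 by -0.56 ± 0.10 (adjusted p = 0.0165, limma). In the same contrast the piRNA list had 1 gene called higher, Tdrkh (0.57 ± 0.09), and Tdrd7 called lower (-0.79 ± 0.12). The meiosis list had Spo11, the nuclease gene that starts recombination, called higher (1.28 ± 0.28) and 3 called lower, Msh5 (-0.996 ± 0.10), Stag3 (-0.95 ± 0.10) and Prdm9 (-0.40 ± 0.09). Spo11 intensity was 67.2, 87.9 and 121 in controls 18, 19 and 20 and 65.3, 92.9 and 291 in deleted samples, so deleted 20 was the highest array. In these lists 3 of 13 and 4 of 21 were called, against 24.6% of all genes and 4.45% of genes of the span of signal of the 9 germline genes. Most genes of both lists were dim, with 9 of 13 and 18 of 21 below the median level. Of the called piRNA genes, 2 were among the 4 above the olfactory 95th percentile and 1 was below it. Of the called meiosis genes, 3 were among the 6 above it and 1 was below.

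The 10 genes of germ cell specification included Pou5f1, Sox2 and Nanog, which are also primed markers. The other 7 were read as markers of primordial germ cells. Of the 10, 7 had a lower mean with deletion, against 62.2% of all genes, and none passed (limma, median -0.17). Of the 7 primordial germ cell markers, 5 had a lower mean (median -0.17). In the list of 10, 2 genes had an unadjusted p under 0.05, against 6% of all genes. These were Nanos3 (-0.19 ± 0.06) and Dnd1 (-0.16 ± 0.07), both translational regulators of early germ cells. In both every deleted array was below every control, as in 9.93% of all genes. Among genes of the span of signal of the measured germline genes, which holds Dnd1 but not Nanos3, the share was 14.3%. Dnd1 stood between 106.1 and 129.5 in all 6 arrays, below the olfactory 95th percentile, and Nanos3 between 188.9 and 228.4, above it. In the blocked fit 2 of the 10 had an unadjusted p under 0.05, against 17.1% of all genes, and none passed (adjusted p from 0.231, limma). These were Nanos3 and Tfap2c (-0.29 ± 0.10), each lower in all 3 experiments, and Dnd1 was not among them. Dppa3 stood between 60.3 and 77.4 and Prdm14 between 103 and 115 in all 6 arrays, also below the olfactory 95th percentile. The 7 primordial germ cell markers summed to 3809 and 2876 in the control and deleted arrays of experiment 20 and to between 1120 and 1392 in the other 4. Of these 7, 3 were called higher in experiment 20 than in 18 and 19, against 12.4% of all genes. In experiment 20 Kit stood at 1824 and 1592 and Prdm1 at 1198 and 621 (adjusted p = 0.00213 and 0.0062, limma). Tfap2c was the third, at 267 and 185 there and 131 to 155 in the other 4 arrays (adjusted p = 0.0135, limma). Kit and Prdm1 are also used by endoderm, and which cells gave these values was not tested. The 7 Sertoli and granulosa markers had summed intensities of 2281 to 3586 over the 6 arrays, and the 7 fibroblast markers of 1741 to 2115.

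The genes that methylate or repress germline promoters were mostly bright and none passed with deletion (0 of 24 by limma, 0 at an unadjusted p under 0.05, median -0.01). In the blocked fit 4 of the 24 had an unadjusted p under 0.05, against 17.1% of all genes, and none passed (adjusted p from 0.167). These were Tfdp1 (-0.33 ± 0.07), Tet1 (0.39 ± 0.08), Tet3 (0.53 ± 0.11) and Wdr5 (-0.25 ± 0.07), each with one sign in all 3 experiments. In the fit without the block Dnmt1, which maintains methylation, was at 0.07 ± 0.08, Dnmt3a at 0.13 ± 0.08 and Dnmt3b at 0.17 ± 0.28. Dnmt3b intensity was 2439, 3200 and 4713 in controls 18, 19 and 20 and 3318, 4785 and 3288 in deleted samples, so it was higher with deletion in experiments 18 and 19 and lower in 20. Rbl2, the reported link from microRNAs to the methyltransferases, was at 0.27 ± 0.29 without the block. In the blocked fit its SE was 0.12 and it did not pass (adjusted p = 0.346, limma). Its intensity was 297.5, 219.7 and 141 in controls 18, 19 and 20 and 289.8, 263.6 and 209.5 in deleted samples. Control 20 was thus near the olfactory 95th percentile of 137. The Rbl2 differences were -0.04, 0.26 and 0.57 in experiments 18, 19 and 20. Without the block, the smallest unadjusted p belonged to Tet1 (0.39 ± 0.18), a dioxygenase that oxidises methylated cytosine, which was higher in all 3 experiments, and to Wdr5 (-0.25 ± 0.12).

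Among the repressors, E2f6 was at 0.13 ± 0.51 with deletion (SE 0.10 in the blocked fit) and differed between experiments. Its intensity was 815, 947 and 2312 in controls 18, 19 and 20 and 881, 1228 and 2181 in deleted samples, higher in experiment 20 by 1.23 ± 0.11 (adjusted p = 0.00362, limma). Its dimerisation partner Tfdp1 (0.46 ± 0.07), Max (0.44 ± 0.09) and the histone methyltransferase gene Setdb1 (0.78 ± 0.07) were also called higher there. Mga (-0.47 ± 0.07), Ehmt1 (-0.26 ± 0.07) and Rbl2 (-0.63 ± 0.13) were called lower. In all, 6 of the 24 were called higher and 3 lower, against 12.4% and 12.2% of all genes. Only 1 of the 24, Rbl2, lay below the median level, and calls were more common among brighter genes. A fit of the genes at or above that level called 2030 higher and 2077 lower, against 2503 and 2460 in the fit of all genes. The shares of all genes thus understate the background of this list. The 6 genes with an E-box, E2F6 core or both in the printed windows included 5 with a measured signal, and of those Ddx4, Mael, Sycp1, Tdrd1 and Stk31 none was called in this contrast, where 4.45% of genes of their span of signal were, so 0 of 5 is near the background.

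**Figure D5:**
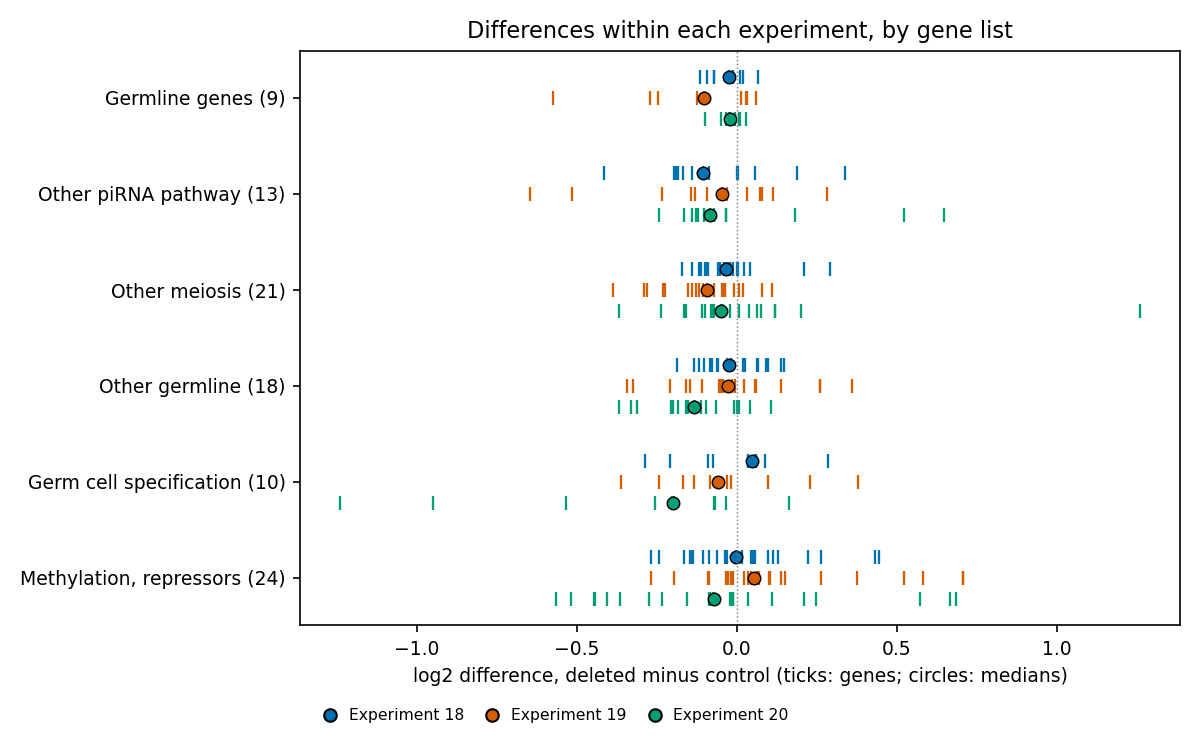
Log2 difference of deleted minus control within each experiment for the 9 germline genes and 5 further lists, with the number of measured genes in brackets. Ticks are genes and circles list medians, coloured by experiment. The medians of the germline genes are -0.02, -0.10 and -0.02 in experiments 18, 19 and 20, and the lowest germline tick is Ddx4 in experiment 19 (-0.57).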

How the data were processed

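Total RNA of 6 samples was hybridised to Affymetrix MoGene 1.0 ST arrays. The submitters' processing notes name RMA, with Affymetrix Expression Console 1.2. Per the file headers, probe sets carry an mm9 annotation. The deposited intensity values (27.2 to 25736) are already normalized between arrays, and the deposited log2 values equal log2 of the same intensity minus the probe set's median to within 2.31e-06. RMA removes any general shift in RNA content. Log2 intensity was used. Probe sets naming several genes or none were left out, the brightest probe set stood for a gene, and 20193 genes remained. Symbols of lists were updated through Entrez identifiers in RefSeq (GRCm38.p6). That build differs from the array's, so its coordinates are given for RefSeq promoters alone. The test was limma's moderated test (version 3.58.1, R 4.3.3) fitted to all genes, threshold 0.05 after Benjamini-Hochberg adjustment, without the experiment as a term. The experiment numbers pair the samples by the labels; deviations of paired arrays correlated at r = 0.83, 0.61 and 0.80 in experiments 18, 19 and 20. The fits were tested on simulated data. Genes were named by rule: all germline members, Dicer1, the 3 genes most like the most variable member, Dnmt1, Dnmt3a, Dnmt3b, E2f6, Rbl2, and per list those passing or the 2 smallest p; others were named after their values were seen. Members and lists were chosen with earlier results of these data known. Figures used matplotlib 3.10.9.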

Additional observations from a re-analysis of the deposited data

How the results depend on the processing

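No germline gene passed with deletion under any alternative run, and the smallest adjusted p was 0.358. With the experiment as a replicate block, 0 genes of the series were called in place of 1 (Dicer1), and this changed no other call; the count was also 0 with trend and robust settings and 0 to 0 over the fits that left out an array or an experiment. The median of the 9 germline genes ran from -0.05 to -0.02 over those fits, and the number with a lower mean from 6 to 9. Applying quantile normalization again made that number 4, with Dazl at 0.0025, Mael at 0.0063, Asz1 at 0.0020 and Stk31 at 0.011, and array weights put Dazl at 0.0033. Leaving out arrays or experiments gave ranges that cross 0 for Ddx4 (-0.36 to 0.052), Dazl (-0.055 to 0.011), Sycp1 (-0.046 to 0.0038), Tdrd1 (-0.036 to 0.040), Asz1 (-0.049 to 0.013) and Stk31 (-0.048 to 0.048). In the contrast of experiment 20, the count of called genes was 4963, from 1757 to 6181 without single arrays and 2992 against experiment 19 alone. It was 1757 without control 18, 2575 without control 19 and 1764 without deleted 18. Signs also turned there with quantile normalization for Mael (0.011), Sycp1 (0.021), Asz1 (0.016) and Stk31 (0.0072), for Stk31 against experiment 18 alone (0.0094) and for Tex101 against experiment 19 alone (0.0100). Without single arrays the ranges were -0.024 to 0.087 for Dazl, -0.033 to 0.0045 for Sycp1, -0.049 to 0.0088 for Asz1, -0.072 to 0.013 for Stk31 and -0.076 to 0.055 for Tex101, none of them called, and -0.54 to -0.25 for Ddx4. The causes were not tested. The filter on dim genes removed all 9 germline genes, so it gave no value for them. Signal near the array background limits what these values can show: a transcript below detection and a silent gene look alike.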

Other observations

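The probe set shared by Sycp3, the axial element gene of meiotic chromosomes, and Chpt1, a phospholipid synthesis gene, belongs to no comparison above. Its intensity was 54.2, 62.1 and 44.1 in controls 18, 19 and 20 and 52, 54.8 and 44.6 in deleted 18, 19 and 20. Control 19 was again the highest array and the arrays of experiment 20 the lowest, and the mean difference was -0.08 log2 units. Its signal cannot be assigned to either gene.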
